A study of Mus musculus with 9 samples.

Results

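The 10 genes Sycp1, Sycp2, Sycp3, Syce1, Syce2, Syce3, Tex12, Hormad1, Rec8 and Smc1b encode parts of the synaptonemal complex and of the meiotic cohesin that underlies it. They were chosen by name, for the structures their products belong to, with earlier results of these data known. They are 10 of the 23074 genes in the count table, and all 10 were among the 15613 genes with enough reads to be tested. The testes of 9 mice aged 29 to 30 days had been freed of their capsule and sequenced as RNA, with 1 library per mouse, to ask which mRNAs depend on RFX2, an RFX family transcription factor that binds the X-box motif. The 5 control mice were wild type and the 4 mutants Rfx2-/-, all on a mixed background of C57BL/6, 129/Sv and FVB/N. In the mutants an exon that encodes much of the DNA binding domain had been deleted by a Cre driven by the actin promoter, so the deletion was present in every tissue and not in germ cells alone. The methods describe the mixed line as retaining a neomycin cassette, on which the labels are silent.

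During meiotic prophase each pair of sister chromatids is held by cohesin and folded into loops along a protein axis. The axes of homologous chromosomes are then joined along their length by the transverse filament protein SYCP1, whose ends meet in a central element, so that the finished structure resembles a zipper. In the testis these genes are known for their use in spermatocytes, and males that lack the core components are infertile because germ cells arrest in meiosis.

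Of the 10 genes, Smc1b was the single member with a complete X-box, in the exact form searched here, in its promoter. Its upstream sequence is shown with the motif in capitals. Sycp2 was, with Smc1b, called higher in Rfx2-/- testes by edgeR at an adjusted p of 0.05. Its upstream sequence is given for comparison and holds no match. Both run 5′ to 3′ on the strand of the gene and end at the base before the RefSeq start site (GRCm38.p6, minus strand, chr15:85131958-85132207 and chr2:178407659-178407908).
Smc1b: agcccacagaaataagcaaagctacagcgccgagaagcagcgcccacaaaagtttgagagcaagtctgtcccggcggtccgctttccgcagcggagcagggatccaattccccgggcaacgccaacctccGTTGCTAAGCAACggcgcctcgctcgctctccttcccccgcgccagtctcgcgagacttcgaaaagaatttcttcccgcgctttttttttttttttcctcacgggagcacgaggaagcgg
Sycp2: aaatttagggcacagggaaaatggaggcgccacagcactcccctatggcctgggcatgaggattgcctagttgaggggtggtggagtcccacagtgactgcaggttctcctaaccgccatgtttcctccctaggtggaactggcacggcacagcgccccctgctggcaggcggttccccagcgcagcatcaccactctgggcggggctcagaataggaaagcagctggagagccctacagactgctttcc
The X-box was searched on both strands as GTTGC, then any 3 or 4 bases, then GCAAC. Looser forms of the whole motif were not searched, so a promoter without a match may still hold one. The exact form was found in 131 of 32851 RefSeq promoters (0.399%), each taken from 250 bases before to 50 bases after the start. In Smc1b the match lies 120 to 108 bases upstream. A single arm of the motif, GTTGCC or GTTGCT on either strand, is common and was present in 8242 of those promoters (25.1%). The Smc1b promoter holds 3 such arms, 2 of which are the arms of its X-box. Syce3 is the only other member with an arm, in the upstream part of the second of its RefSeq promoters, 6 bases before the start (ggggcgtcGTTGCCaggagtcc, arm in capitals) and 173 bases before it on the opposite strand (tgtcctcaAGCAACctccggcc). The 13 promoters of the 10 genes were all present in the RefSeq set, and the remaining 8 members had no match to either motif. The study's separate chromatin immunoprecipitation for RFX2 used dissociated germ cells of younger wild type mice and wider promoter windows than those searched here. In it, 953 of the 15613 genes tested here (6.1%) are listed with a bound promoter, and Smc1b and Syce3 are the 2 members among them.

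Rfx2-/- replicate 1 held 28800855 counts, the other 8 libraries held 13574764 to 15193330, and the members had between 175 and 20622 counts in a library. Levels are given as CPM, the usual unit of counts scaled by depth, for which each library total was multiplied by its TMM factor. Rfx2 itself was at 471 to 624 CPM in wild type and 61.5 to 199 CPM in Rfx2-/- testes, without overlap (log2 fold change -1.91 ± 0.28 (SE), adjusted p = 7.81e-04). Reads from its remaining exons are still counted. Gene positions are those of GENCODE M21 (GRCm38). Every gene of 8 lists of testis cell markers, germ line and somatic, was detected in every library. Rfx2-/- replicate 2 stood apart from the other mutants, and the changes of the members are given with and without it.

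No member changed by the stricter rule, an adjusted p of at most 0.01 with more than a 2-fold change (edgeR quasi-likelihood test, adjusted over all genes tested), by which 0.826% of all genes were higher and 3.68% lower in Rfx2-/- testes. DESeq2 also called 0 of 10. When an adjusted p of at most 0.05 was required with no limit on the fold change, Smc1b and Sycp2 were higher and no member was lower, where 3.48% of all genes were higher and 7.31% lower. At an unadjusted p under 0.05, 6 of 10 were higher and 0 lower, beside 13.9% and 13.7% of all genes. DESeq2 at an adjusted p of 0.05 called 4 members higher (Sycp1, Sycp2, Tex12 and Smc1b) and 0 lower, beside 6.17% and 9.61% of all genes. The calls at an adjusted p of 0.05 changed when single libraries were left out, as did those over all genes. In the fit reported 544 genes were higher. Without wild type replicates 1 to 5 in turn 303, 283, 441, 310 and 276 were, and 426 without Rfx2-/- replicate 4. No member remained without wild type replicate 1, 2, 3 or 5 or without Rfx2-/- replicate 4, and Smc1b alone remained without wild type replicate 4. Without Rfx2-/- replicate 1, 6 members were called higher (Sycp1, Sycp2, Sycp3, Tex12, Hormad1 and Smc1b), where 8.86% of all genes were higher. With 1 library left out the log2 fold change ran from 0.49 to 0.72 for Smc1b and from 0.50 to 0.90 for Sycp2. With total counts in place of TMM factors 5 members were called higher, beside 7.58% of all genes. The fitted change was above 0 for 9 of the 10 members, with a median log2 fold change of 0.61, beside a median of 0.03 over all genes tested. Without Rfx2-/- replicate 2 the median of the members was 0.28, and with trends on gene length and GC content removed from each library it was 0.19. In whole testis, fewer cells of a type and less RNA per cell cannot be told apart, and the same holds for more.

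**Figure D1:**
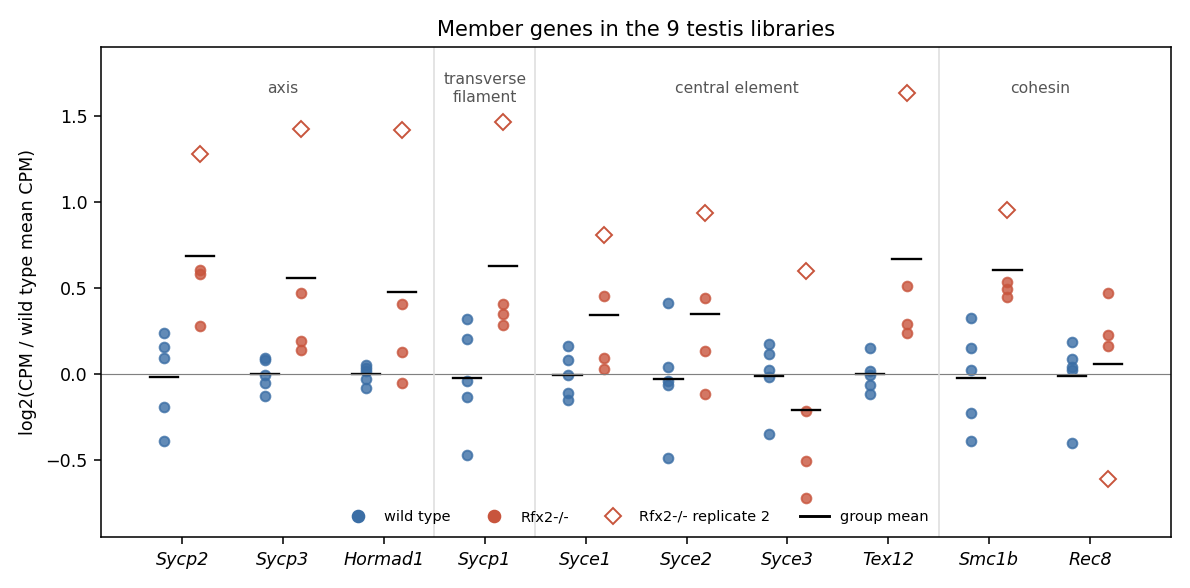
Level of each member in each library as log2 of its CPM over the mean wild type CPM, grouped by role, with wild type in blue, Rfx2-/- in red, Rfx2-/- replicate 2 as an open diamond and a bar at the mean of the log2 values of each genotype. Rfx2-/- replicate 2 is the highest mutant library for 9 of the 10 genes and the lowest for Rec8, and Sycp2, Sycp3, Tex12 and Smc1b have no overlap between genotypes.

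SYCP2 and SYCP3 form the filaments of the chromosome axis, and HORMAD1 marks the axis where homologs are not yet joined. Sycp2 (ENSMUSG00000060445, chr2:178345293-178407685, minus strand) was at 479, 502, 393, 531 and 343 CPM in wild type replicates 1 to 5 and at 685, 1094, 546 and 674 CPM in Rfx2-/- replicates 1 to 4. Every mutant library was above every wild type library, and the highest value was that of replicate 2. The log2 fold change was 0.74 ± 0.21 (SE), a 1.67-fold rise (adjusted p = 0.0443), and without replicate 2 it was 0.50 ± 0.15 (adjusted p = 0.0392). With the length and GC trends removed it was 0.41 ± 0.17 and the call was lost (adjusted p = 0.124).

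Sycp3 (ENSMUSG00000020059, chr10:88459569-88473236, plus strand) was at 111, 109.9, 94.8, 103 and 99.9 CPM in wild type and at 114, 279, 119 and 144 CPM in Rfx2-/- testes. The genotypes did not overlap, yet 3 of the 4 mutant values lay close to the wild type range and 1 lay far above it. The log2 fold change of 0.66 ± 0.24 (SE) did not pass (adjusted p = 0.102). Without replicate 2 it was 0.27 ± 0.11 (adjusted p = 0.115), and with the trends removed -0.02 ± 0.11. Of the exon sequence of Sycp3, 44.6% of the stretches of 50 bases are shared with Chpt1, which overlaps it on the opposite strand, so reads of these genes may have been exchanged or dropped.

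Hormad1 (ENSMUSG00000028109, chr3:95559677-95587671, plus strand) was at 80.4, 82.2, 81.3, 75.1 and 77.7 CPM in wild type, the narrowest spread of the members relative to the mean, and at 76.5, 212, 86.8 and 105 CPM in Rfx2-/- testes. Replicate 1 of the mutants lay within the wild type range and replicate 2 far above it. The log2 fold change was 0.60 ± 0.26 (SE, adjusted p = 0.154), 0.17 ± 0.11 without replicate 2 (adjusted p = 0.345) and -0.06 ± 0.09 with the trends removed. Pseudogenes share 22.9% of its exon stretches of 50 bases.

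SYCP1 spans the gap between the axes. Sycp1 (ENSMUSG00000027855, chr3:102818499-102936100, minus strand) was at 232, 275, 172, 298 and 218 CPM in wild type and at 291, 660.5, 305 and 317 CPM in Rfx2-/- testes. The lowest mutant library lay just below the highest wild type library, so the genotypes overlapped. The log2 fold change was 0.72 ± 0.26 (SE, adjusted p = 0.0964) in all 9 libraries and 0.35 ± 0.15 (adjusted p = 0.156) without replicate 2. With the length and GC trends removed it was 0.23 ± 0.16 (adjusted p = 0.349).

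The central element is built from SYCE3, SYCE1, SYCE2 and TEX12, of which the last 2 bind each other in fibres that extend synapsis along the chromosome. Syce1 (ENSMUSG00000025480, chr7:140777229-140787852, minus strand) was at 329, 354, 319.7, 376 and 399 CPM in wild type and at 379, 623, 363 and 487 CPM in Rfx2-/- testes. Syce2 (ENSMUSG00000003824, chr8:84872111-84888221, plus strand) was at 101, 95.4, 70.1, 94.1 and 130.6 CPM in wild type and at 90.8, 188, 108 and 134 CPM in Rfx2-/- testes. Both overlapped between genotypes and neither passed (log2 fold change 0.38 ± 0.18 with adjusted p = 0.184, and 0.40 ± 0.22 with adjusted p = 0.261). The 95% intervals of these changes were -0.0026 to 0.76 for Syce1 and -0.086 to 0.89 for Syce2, and both hold the change of Sycp2. Without replicate 2 the changes were 0.20 ± 0.13 for Syce1 and 0.17 ± 0.18 for Syce2.

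Tex12 (ENSMUSG00000032065, chr9:50556819-50561325, minus strand) was at 14.8, 16.4, 14.2, 14.97 and 13.6 CPM in wild type and at 17.5, 45.9, 18.1 and 21.1 CPM in Rfx2-/- testes. The genotypes did not overlap, and it had the highest fitted change of the members, 0.79 ± 0.26 (SE) on the log2 scale, which did not pass (adjusted p = 0.0771). Without replicate 2 it was 0.35 ± 0.12 (adjusted p = 0.0633), and with the trends removed 0.06 ± 0.13.

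Syce3 (ENSMUSG00000078938, chr15:89390174-89410503, minus strand) was the single member fitted below 0, and with total counts in place of TMM factors it was at 0.025. It was at 41.0, 44.99, 32.51, 46.9 and 42.1 CPM in wild type and at 25.2, 62.9, 29.2 and 35.7 CPM in Rfx2-/- testes. Of the mutants, 2 were below every wild type library, 1 was within the wild type range and replicate 2 was above all others. The log2 fold change was -0.12 ± 0.24 (SE, adjusted p = 0.775, 95% interval -0.64 to 0.41). Without replicate 2 Syce3 was called lower at -0.47 ± 0.14 (adjusted p = 0.0446), where 9.77% of all genes were lower and 4.93% higher. It was also called lower with the length trend alone removed (-0.41 ± 0.12, adjusted p = 0.0405). In that fit 1562 of the 15613 genes tested were lower and 652 higher. With the length and GC trends removed it was not (-0.31 ± 0.14, adjusted p = 0.15).

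SMC1B is the meiotic form of a cohesin ring subunit and REC8 the meiotic kleisin that closes the ring. Smc1b (ENSMUSG00000022432, chr15:85064689-85131964, minus strand) was at 241, 314, 216, 354 and 288 CPM in wild type and at 398, 548, 385 and 409 CPM in Rfx2-/- testes. Every mutant library was above every wild type library, and 3 of the mutants lay close together. The log2 fold change was 0.62 ± 0.18 (SE), a 1.54-fold rise (adjusted p = 0.0433). Without replicate 2 the change remained at 0.49 ± 0.15 (adjusted p = 0.0388), and with the length and GC trends removed it was 0.34 ± 0.14 and not called (adjusted p = 0.136). Rec8 (ENSMUSG00000002324, chr14:55618037-55625395, plus strand) was at 90.3, 81.7, 60.2, 84.4 and 80.9 CPM in wild type and at 92.9, 52.0, 88.8 and 110.1 CPM in Rfx2-/- testes, and here replicate 2 was the lowest of all 9 libraries. Its log2 fold change was 0.11 ± 0.20 (SE, adjusted p = 0.746, 95% interval -0.33 to 0.56), and without replicate 2 it was 0.29 ± 0.13 (adjusted p = 0.167).

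In all, 4 of the 10 members had no overlap between genotypes and were higher in the mutants, and 0 were lower, beside 6.16% and 9.7% of all genes tested. The same number, 4, separated without Rfx2-/- replicate 2, where 8.65% of all genes did so in that direction and 11.6% in the other.

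**Figure D2:**
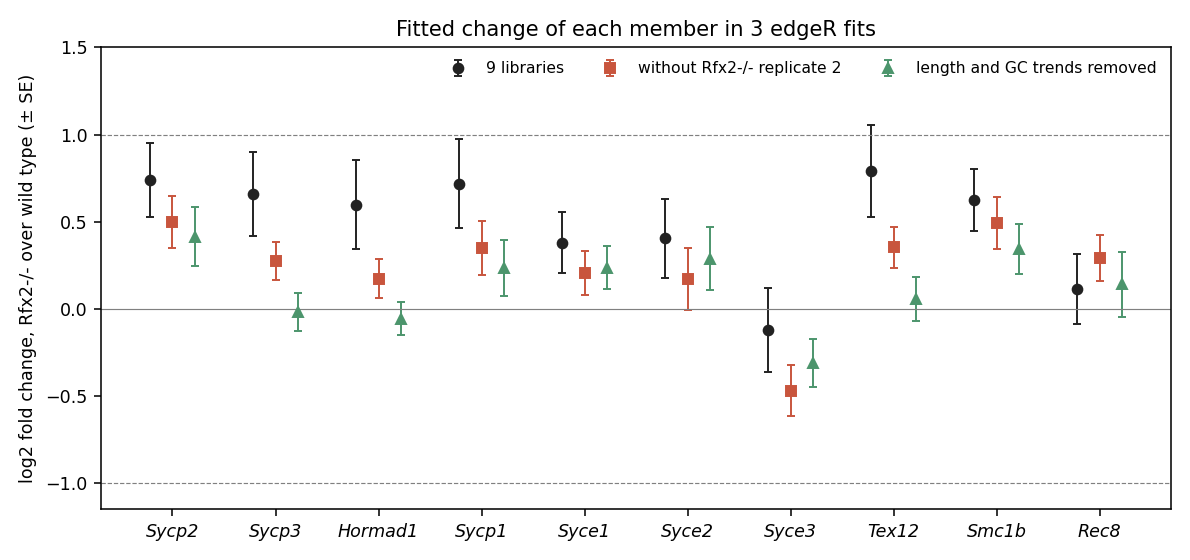
Fitted log2 fold change of each member, Rfx2-/- over wild type, with its standard error, from edgeR fits of all 9 libraries (black), without Rfx2-/- replicate 2 (red) and with length and GC trends removed (green), and dashed lines at a 2-fold change. Sycp2 and Smc1b stay at 0.34 or higher in the 3 fits, whereas Sycp3, Tex12 and Hormad1 come close to 0 once the trends are removed.

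The deviation of Rfx2-/- replicate 2 varied with the base composition and the length of genes. Over all genes tested, its log2 deviation from the mean of the other 3 mutants had a median of 0.51 for 574 genes with under 40% GC in their protein coding transcripts, 0.07 for 6721 genes between 40% and 50%, -0.18 for 7436 genes between 50% and 60%, and 0.12 for 750 genes above, so that it was lowest at intermediate GC. By exon length the median was 0.55 for 3724 genes under 2 kb, 0.03 for 5898 genes of 2 to 4 kb and -0.52 for 5859 genes above. Of the members, 6 are under 2 kb (Sycp3, Syce1, Syce2, Syce3, Tex12 and Hormad1), and Sycp2 and Smc1b are above 4 kb. The members were split at 45% GC after their values were seen, and 6 of them have 35.0% to 39.8%. For these 6 (Sycp1, Sycp2, Sycp3, Tex12, Hormad1 and Smc1b) replicate 2 was 1.38-fold to 2.43-fold above the mean of the other mutants, with the smallest excess in Smc1b. The other 4 members have 50.4% to 56.7% GC, close to or above the median of 50.5% over all genes, and their ratio ran from 0.534 in Rec8 to 2.10 in Syce3. Syce1, Syce2 and Syce3 therefore lay above the genes of like GC content in this library, and Rec8 below them. As log2 values these were 0.60 in Syce1, 0.76 in Syce2 and 1.07 in Syce3, beside the median of 0.55 for genes under 2 kb. With the trends on length and GC removed from every library, 0 members were called in either direction at an adjusted p of 0.05, where 4.39% of all genes were higher and 10.2% lower.

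**Figure D3:**
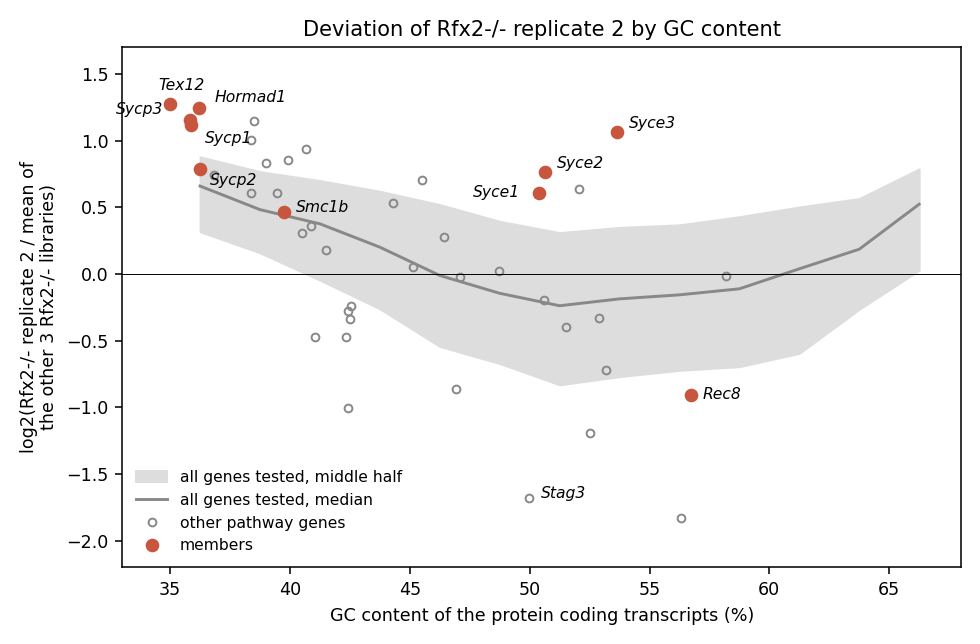
Log2 ratio of Rfx2-/- replicate 2 to the mean of the other 3 Rfx2-/- libraries against the GC content of the protein coding transcripts, for the members (red) and for 33 other genes of the same pathways (open circles), with the median of all genes tested as a line and the range between their quartiles in grey. The 6 members with under 40% GC lie at 0.46 to 1.28, and Rec8 lies at -0.90.

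The levels of cell type markers are given beside these changes. The 9 markers of elongating spermatids summed to 8447 to 17981 CPM in wild type and 6689 to 10724 CPM in Rfx2-/- testes. All 9 were fitted below 0, with a median log2 fold change of -0.77. At an adjusted p of 0.05, by which 7.31% of all genes were lower and 3.48% higher, 5 of these markers were called lower (Akap4, Prm1, Prm2, Odf1 and Tnp1). Those of late spermatocytes summed to 6243 to 7921 CPM in wild type and 6036 to 8619 CPM in Rfx2-/- testes (10 genes, median -0.02, with Cdc25c called lower), and those of round spermatids to 939 to 1338 and 1124 to 1515 CPM (8 genes, median 0.24, 0 called). The 10 members summed to 1454 to 1978 CPM in wild type and 2048 to 3765 CPM in mutants, without overlap, and 3765 CPM was again the value of replicate 2. Of the other lists 1 gene was called, the Sertoli cell marker Amh, which was higher. These markers were named after their values were seen. The medians of those lists lay between -0.04 for peritubular cells and 0.21 for macrophages. The part of these shifts in the changes of the members was not tested.

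Compared per kilobase of exon, wild type testes held most mRNA of Syce1, at 243.6 ± 22.4 CPM per kilobase (SD, n = 5), above the range of every other member. It was followed by Sycp3 at 82.1 ± 5.32, Sycp2 at 78.4 ± 13.7, Syce3 at 75.04 ± 10.02, Smc1b at 69.8 ± 13.7, Sycp1 at 69.5 ± 14.4, Syce2 at 57.7 ± 12.7 and Hormad1 at 45.9 ± 1.67 CPM per kilobase. From Sycp3 to Hormad1 the range of each gene over the 5 mice overlapped that of the next, so neighbours in this order are not resolved. Hormad1 overlapped none of the genes before Syce2, but its level may be understated. Pseudogenes share 22.9% of its exon stretches of 50 bases, and reads with several genomic positions were discarded. The place of Sycp3 is also uncertain, as 44.6% of its stretches are shared with Chpt1. Rec8, at 36.4 ± 5.22, and Tex12, at 14.6 ± 1.03 CPM per kilobase, were each below the range of the gene before them. Tex12 was thus less abundant per length than its partner Syce2, and Rec8 less than its cohesin partner Smc1b.

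Levels within a library can also be compared as ratios of subunits that replace or bind each other, which do not depend on library scaling. The ratio of Stag3, the meiotic STAG subunit of cohesin, to its general counterpart Stag2 was 25.9, 22.3, 27.8, 25.2 and 23.3 in wild type and 19.5, 3.28, 15.4 and 13.6 in Rfx2-/- testes. All mutants were below all wild type libraries, with a log2 difference of -1.21. The exact two-sided permutation test gave p = 0.00794, the smallest that the 126 possible arrangements can give, and 0.0476 after adjustment over 6 ratios. Without replicate 2 the difference was -0.64, with an exact permutation p = 0.0179, again the smallest possible, and 0.107 after adjustment, and with any other library left out the adjusted p was 0.107 or 0.171. With the trends removed it was -0.91 at the same adjusted p as in all libraries. Neither gene passed in the edgeR fit over all genes with all 9 libraries. There Stag3 had a log2 fold change of -0.56 ± 0.29 (SE, adjusted p = 0.225) and Stag2 one of 0.52 ± 0.16 (adjusted p = 0.0578). Stag2 was called higher by DESeq2 (0.53 ± 0.18, adjusted p = 0.0248) and by edgeR without replicate 2 (0.35 ± 0.11, adjusted p = 0.0461). It was not called with the length and GC trends removed (0.31 ± 0.14, adjusted p = 0.152).

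The ratio of Smc1b to its general counterpart Smc1a was 12.3 to 22.3 in wild type and 20.1, 55.2, 20.4 and 26.5 in Rfx2-/- testes, so it overlapped (log2 difference 0.59, exact permutation p = 0.127, adjusted 0.381), and without replicate 2 the difference was 0.26 (exact permutation p = 0.375). Rec8 to Rad21, the general kleisin, was 0.891 to 1.52 in wild type and 0.524 to 1.30 in mutants (log2 difference -0.33, exact permutation p = 0.365), and without replicate 2 the difference was -0.031 (exact permutation p = 0.857). The ratio of Sycp2 to Sycp3 (log2 difference 0.15, exact permutation p = 0.373) and that of Syce2 to Tex12 (-0.30, exact permutation p = 0.238) also overlapped, at 0.24 and -0.17 without replicate 2. The further meiotic kleisin Rad21l was far below Rad21 in all libraries, with a ratio of 0.0736 to 0.109 in wild type and 0.0784 to 0.101 in mutants (log2 difference 0.08, exact permutation p = 0.556).

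**Figure D4:**
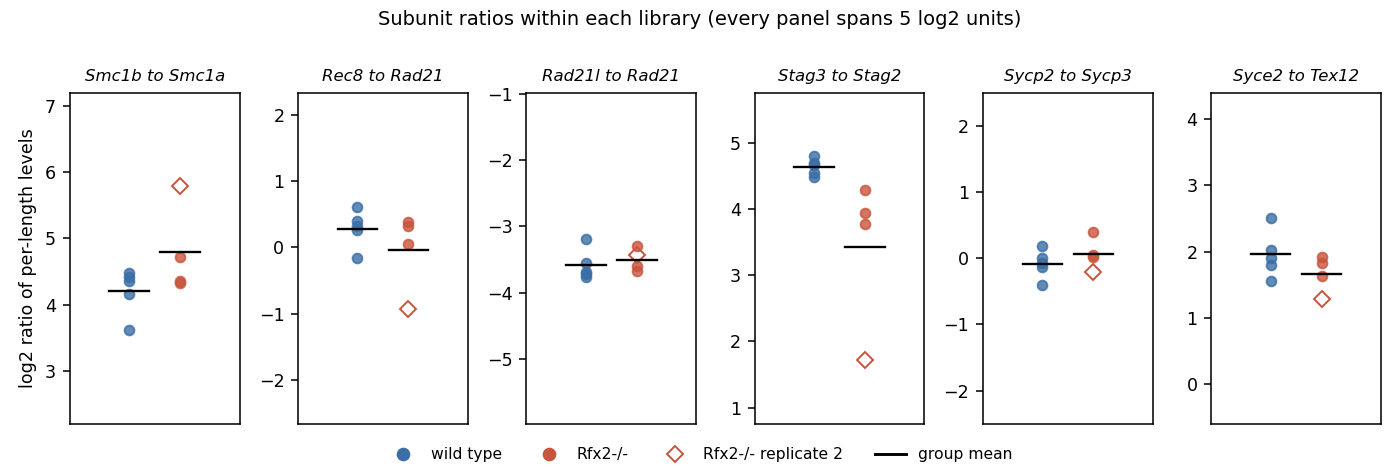
Log2 ratio of the per-length levels of 6 pairs of subunits in each library, with wild type in blue, Rfx2-/- in red, Rfx2-/- replicate 2 as an open diamond and bars at the genotype means, and every panel spanning the same number of log2 units. Stag3 to Stag2 is the single ratio without overlap, and replicate 2 is its lowest value.

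Smc1b shares its upstream region with Ribc2, a gene of ciliary and flagellar microtubules that was singled out after its values were seen. Ribc2 (ENSMUSG00000022431) starts at 85132078 on chromosome 15, 114 bases from the Smc1b start, and runs to 85144570 on the plus strand. The X-box of the Smc1b promoter, at 85132065 to 85132077, lies between these starts, immediately before that of Ribc2. No other member has a further gene starting within 2000 bases. Ribc2, which is also on the study's list of bound promoters, was at 60.3, 62.6, 54.5, 74.8 and 76.0 CPM in wild type and at 112, 115, 92.7 and 145 CPM in Rfx2-/- testes. It was higher in every mutant library, replicate 2 was not apart, and the log2 fold change was 0.82 ± 0.16 (SE, adjusted p = 0.00554). Both genes of this bidirectional pair were higher in every mutant library than in every wild type library, and whether their changes are linked was not tested. With the length and GC trends removed, Ribc2 remained at 0.76 ± 0.14 (adjusted p = 0.00317), while Smc1b was not called.

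**Figure D5:**
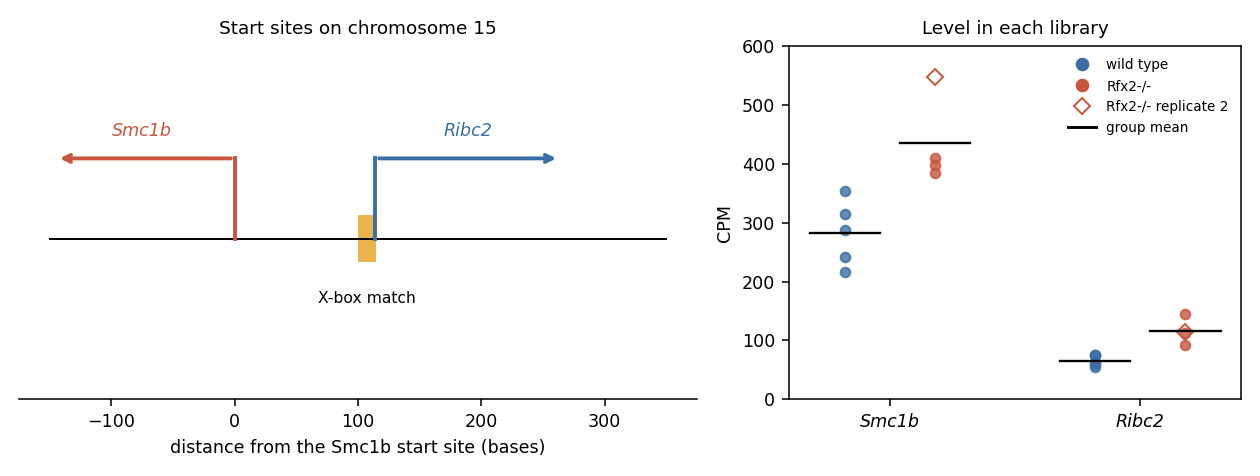
Left, start sites of Smc1b and Ribc2 to scale as the distance in bases from the Smc1b start, with the X-box in yellow and arrows for the direction of transcription. Right, CPM of both genes in each library, with wild type in blue, Rfx2-/- in red, replicate 2 as an open diamond and bars at the genotype means, where every mutant library lies above every wild type library for both genes.

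Other genes of the pathway, 33 in 4 lists, had a median log2 fold change of 0.20, with 23 above 0 and 10 below. None passed the stricter rule. At an unadjusted p under 0.05 edgeR gave 9 higher and 2 lower, beside 13.9% and 13.7% of all genes. At an adjusted p of 0.05 DESeq2 called 7 higher and 0 lower, beside 6.17% and 9.61% of all genes. By that limit edgeR called 1 higher and 0 lower, beside 3.48% and 7.31%. The gene called was 4930447C04Rik, listed by RefSeq as Six6os1, a central element gene. It was at 32.2, 33.3, 32.51, 35.4 and 28.6 CPM in wild type and at 48.2, 72.5, 43.6 and 38.2 CPM in Rfx2-/- testes, higher in every mutant (log2 fold change 0.64 ± 0.18, adjusted p = 0.0379). It was not called with any of the 5 wild type libraries left out (log2 fold change 0.60 to 0.69, adjusted p 0.0581 to 0.101), nor with the trends removed (0.29 ± 0.12, adjusted p = 0.129). It passed in 9 of 15 alternatives, among them DESeq2 (0.66 ± 0.20, adjusted p = 0.0116) and edgeR without Rfx2-/- replicate 2 (0.42 ± 0.11, adjusted p = 0.0203).

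Among 9 other synaptonemal complex and axis genes the median was 0.23, and that gene was the single call. The 6 genes that attach telomeres to the nuclear envelope had a median of 0.19, the 5 general cohesin subunits 0.16, and the 13 genes for loading, release and protection of cohesin 0.23, each with 0 called at an adjusted p of 0.05 by edgeR. Rad21, at 115 to 131 CPM in wild type and 138 to 192 CPM in mutants, did not overlap between genotypes and did not pass in edgeR (log2 fold change 0.41 ± 0.13, adjusted p = 0.0714). DESeq2 called 2 of the 5 general cohesin subunits higher, Rad21 (0.42 ± 0.13, adjusted p = 0.0145) and Stag2, beside 6.17% of all genes. Rad21l had a fitted change of 0.48 ± 0.20 (adjusted p = 0.149) and Smc1a, the counterpart of Smc1b, of 0.08 ± 0.20 (adjusted p = 0.828).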

How the data were processed

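The authors deposited raw read counts per gene, in whole numbers without normalisation, for decapsulated testes of 5 wild type and 4 Rfx2-/- mice (1 library per mouse, TruSeq, HiSeq 2000). Their processing notes name CASAVA 1.8.2, STAR 2.4 and featureCounts 1.4.6, on GRCm38. Reads with several genomic positions were discarded, which lowers genes with near-identical copies, and the use of strand is not stated. Genotypes came from the labels, and replicate numbers pair no animals. The 10 members, the pathway and marker lists and the tests were chosen with earlier results of these data known. The text names all members, pathway list genes that pass either rule (up to 3 per list), the partners in the ratios and Rfx2.

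The model was edgeR 4.0.16 under R 4.3.3 (quasi-likelihood F test, TMM, filterByExpr, robust) on genotype alone, adjusted by Benjamini-Hochberg over 15613 genes, and with DESeq2 1.42.0 as an alternative. Changes are log2 fold changes with SE. Ratios of per-length levels were compared by exact permutation over libraries (scipy 1.17.1). Trends on exon length and GC content were removed through loess offsets, the GC trend after the data were seen. Gene models came from GENCODE M21, which held 96.6% of the gene IDs. GC content was known for 99.2% of the genes tested. Promoters came from RefSeq. Pairs of libraries of a genotype differed by a chi-square of at least 4.32 per gene, above sampling noise, so none was merged. The fit was tested on simulated data. Depth speaks for counting error only, as reads lacking molecular identifiers can be copies of a molecule. Other settings were total counts and RLE factors in place of TMM, no filter on low counts, a test against a 2-fold change and leaving out each library.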

Additional observations from a re-analysis of the deposited data

Results flagged for a closer look

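In 32 groups of 4 or 5 values (20 of member levels and 12 of subunit ratios), 3 held a library far from the others of its genotype by Dixon's criterion, where chance gives about 1.6. All 3 were Rfx2-/- replicate 2. Sycp1 was at 660.5 CPM there and at 291 to 317 CPM in the other mutants, Tex12 at 45.9 against 17.5 to 21.1 CPM, and Smc1b at 548 against 385 to 409 CPM. The 3 genes have under 40% GC in their transcripts, a class with a median log2 excess of 0.51 in that library.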

How the results depend on the processing

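The comparisons rest on 4 mutant mice of 1 age, of which replicate 2 differed from the others with gene length and GC content. At an adjusted p of 0.05 Smc1b passed in 9 of 15 alternatives (adjusted p 0.00862 to 0.136) and Sycp2 in 8 of 15 (0.00976 to 0.124), and both kept their direction in all 15. No paired analysis was possible because the labels carry no replicate number that ties mice of the genotypes together.

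By the stricter rule 0 members were called under every setting run. At an adjusted p of 0.05, 2 members were higher in the fit reported, 4 by DESeq2 (Smc1b, Sycp2, Tex12 and Sycp1), 5 with total counts (7.58% of all genes, against 3.48% in the fit reported) and 0 with length and GC trends removed. Over all genes 544 were higher in the fit reported, 276 to 441 with a wild type library left out and 426 without Rfx2-/- replicate 4. Leaving out a library gave 0 to 6 members higher. It was 0 without wild type replicate 1, 2, 3 or 5 or Rfx2-/- replicate 4, 1 without wild type replicate 4 and 6 without Rfx2-/- replicate 1 (8.86% of all genes). The number lower was 1 of 10 (Syce3) with the length trend removed, beside 1562 of all 15613 genes. It was 0 to 1 with a library left out, the 1 being Syce3 without Rfx2-/- replicate 2 (9.77% of all genes). Total counts shift the median of all genes from 0.03 to 0.16, and the members' median of 0.75 is to be read against it. Signs turned for Sycp3 (-0.017) and Hormad1 (-0.056) with length and GC trends removed, and for Syce3 with total counts (0.025) and with a library left out, over a range of -0.47 to 0.071 with 0.026 without Rfx2-/- replicate 3 and the highest value without replicate 1. None of these turned values was called.

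Stag3 to Stag2 kept its direction, at -1.49 to -0.64 with a library left out and adjusted p of 0.107 to 0.171 (exact permutation), where the smallest possible p with 8 libraries cannot pass the adjustment alone. With the trends removed Rad21l to Rad21 turned to -0.29 and Syce2 to Tex12 to 0.23, neither passing. Of the other pathway genes, 1 was higher in the fit reported (beside 3.48% of all genes), 7 by DESeq2 (6.17%) and 6 with total counts (7.58%). With length and GC trends removed 0 were higher (4.39%), and 0 to 8 with a library left out. These were 0 without wild type replicate 1, 2, 4 or 5, beside 276 to 310 of all genes. There was 1 of 33 without wild type replicate 3 (Meikin), beside 441 of 15511 genes. There were 8 without Rfx2-/- replicate 1 (8.86%), 3 without replicate 2 (4.93%) and 2 without replicate 3 (494 of 15749 genes). The number lower was 2 with length and GC trends removed (10.2%). It was 0 to 1 with a library left out, the 1 being Espl1 without Rfx2-/- replicate 2 (9.77%). List medians moved to -0.074 for telomere attachment and 0.019 for cohesin loading, release and protection with the trends removed, to 0.36 for the latter with total counts, over 0.016 to 0.29 for telomere attachment with a library left out, the lowest without Rfx2-/- replicate 2, and over 0.18 to 0.54 for other synaptonemal complex and axis genes with a library left out, the highest without wild type replicate 3. The DESeq2 fit of the pathway lists and the GC trend were chosen after the data were seen, and the cause of these movements was not tested.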

Other observations

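Of the 13 genes for loading, release and protection of cohesin, 8 were fitted above 0 and 5 below. Some of these regulators, named here after their values were seen, had lower levels in mutants in some settings, and others had higher levels. Espl1, which encodes separase, the protease that opens cohesin, was at 254, 243, 233, 241 and 245 CPM in wild type and at 188, 48.5, 158 and 170.3 CPM in Rfx2-/- testes, without overlap. Its log2 fold change was -0.79 ± 0.30 (SE, adjusted p = 0.117, edgeR) in all libraries, -0.50 ± 0.10 (adjusted p = 0.0043) without Rfx2-/- replicate 2 and -0.66 ± 0.19 (adjusted p = 0.0328) with length and GC trends removed. Nipbl, the cohesin loader, was at 651 to 761 CPM in wild type and at 670.5, 288, 538 and 524 CPM in mutants, where replicate 1 lay in the wild type range. It was called lower with the trends removed (-0.53 ± 0.15, adjusted p = 0.0329) and not in all libraries (-0.46 ± 0.21, adjusted p = 0.179). In the opposite direction, Pds5b, a regulator of cohesin release, was called higher without replicate 2 (0.36 ± 0.10, adjusted p = 0.0285) and not in all libraries (0.26 ± 0.14, adjusted p = 0.257). DESeq2 called 3 of the 13 higher and 0 lower, beside 6.17% and 9.61% of all genes. These were Esco2 (0.79 ± 0.27, adjusted p = 0.0263), Meikin (0.63 ± 0.21, adjusted p = 0.0205) and Esco1 (0.60 ± 0.22, adjusted p = 0.0366). None of the 3 was called by edgeR in all libraries (adjusted p = 0.0652, 0.0534 and 0.0706).

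In wild type, replicate 3 was the lowest library for 7 of the 10 members, replicate 5 for 2 and replicate 4 for 1. Without replicate 3 the members' calls at an adjusted p of 0.05 were lost, with log2 fold changes of 0.58 for Smc1b and 0.73 for Sycp2.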
